A study of Arabidopsis thaliana with 4 samples.

Results

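The genes described here are 10 Arabidopsis thaliana glutamate receptor-like (GLR) channel genes of clades 1 and 2, namely GLR1.1 to GLR1.4 and GLR2.1, GLR2.3, GLR2.5, GLR2.7, GLR2.8 and GLR2.9. They were taken by locus identifier from a table of 33602 genes, and all 10 were in it. The list was drawn up with earlier results of these data known. It leaves out GLR2.2, GLR2.4 and GLR2.6 of clade 2, whose levels were low. RNA came from seedlings of the Col-0 ecotype, 14 days old, raised in hydroponic boxes on 1/2 MS salts lacking nitrogen, with 16 h of light and 8 h of dark at 22 °C. The control group was sampled at 0 h, and the other group after 0.5 h on the same salts with 2.5 mM glutamate. Each group had 2 RNA-seq libraries, and the series asked which genes respond early to glutamate. No library of seedlings moved for the same time without glutamate was analysed here, so glutamate, the transfer and the elapsed time cannot be told apart. Nothing in the labels tells whether replicate libraries stem from separate boxes of seedlings, and the p-values below therefore rest on a spread that could be purely technical.

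GLR proteins are plant relatives of the ionotropic glutamate receptors of animal nerve cells. They form cation channels in cell membranes that can pass calcium, and several are opened by amino acids, glutamate among them. Clade 3 members are best known for the calcium and electrical signals that follow wounding. Of the genes described here, GLR1.1 has been linked to carbon and nitrogen signalling, GLR1.2 to D-serine-triggered calcium entry in pollen tubes, GLR1.2 and GLR1.3 to cold tolerance, GLR1.4 to a channel opened by methionine, and GLR2.7, GLR2.8 and GLR2.9 to the calcium rise that follows recognition of microbial patterns. Clade 2 transcripts have been described mainly from roots.

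After 0.5 h of glutamate, 4 of the 10 genes were called higher: GLR2.5, GLR1.2, GLR2.8 and GLR1.3, by 5.92-fold, 4.21-fold, 5.06-fold and 2.2-fold in mean RPKM. The 4 genes belong to both clades, and 3 of them lie in tandem arrays, side by side with close relatives. GLR2.7 and GLR2.9, in the same array as GLR2.8, did not pass. None of the 9 genes tested was called lower. The genes with the highest control levels, GLR1.1 and GLR2.7, were among the 5 tested genes that did not pass, and GLR2.3 was too low for that test. GLR2.3 was lower in both glutamate libraries, at 0.366 of its control level. It was called lower by a setting that covers genes of fewer reads (voom, adjusted p = 0.047). That setting was chosen after seeing the data, and limma without the filter did not call GLR2.3 (adjusted p = 0.15). Levels are the deposited RPKM, that is, reads per kilobase of gene and per unit of sequencing depth, with TMM scaling between libraries. Tests covered genes averaging 1 RPKM or more over the 4 libraries. They were run with limma on log2(RPKM + 1), and a gene was called at a Benjamini-Hochberg adjusted p under 0.05 over all 17750 genes tested. Log2 changes below are on that scale, on which changes of low genes come out too small. Of the genes tested, 16.3% were called higher and 14.6% lower, 30.8% in either direction, so that 4 of 9 members tested (44.4%) stood beside a background in which calls were common. The median log2 change was 0.36 over the 9 members tested and -0.06 over all genes tested. Without the filter, with all 10 members included, the medians were 0.12 and 0.0057. The 3 clade 2 genes outside the list had a median of -0.17 in that fit, so the median depends on which genes are listed. The median of all genes takes in genes at the lowest level, 10360 to 10694 per library. The filter on the mean of all libraries kept GLR2.8, which passed through its glutamate libraries, and left out GLR2.3, whose control mean was higher.

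**Figure D1:**
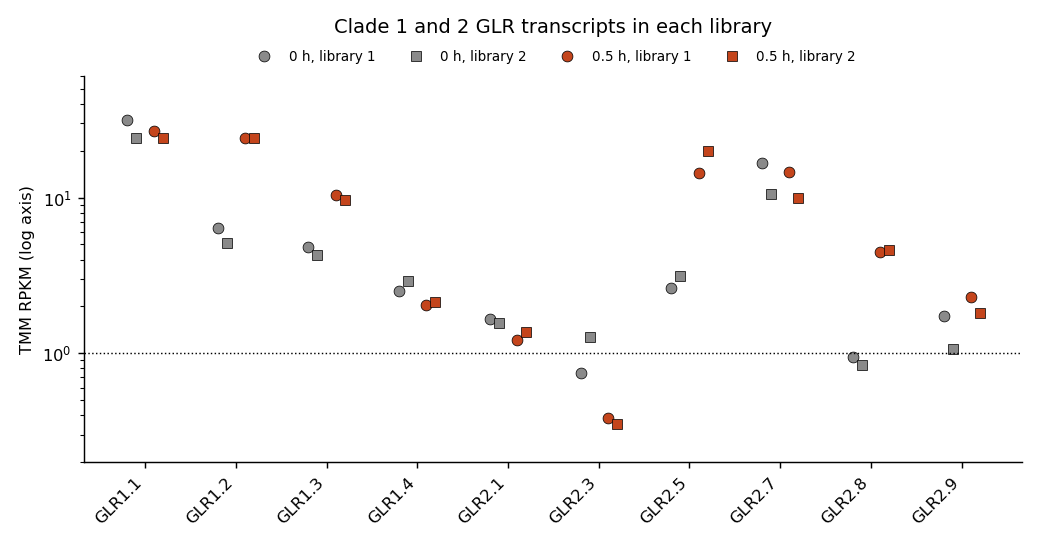
Deposited RPKM of the 10 genes in each library on a log axis, with grey symbols for 0 h, red symbols for 0.5 h, circles for library 1 and squares for library 2. The dotted line marks 1 RPKM. GLR1.2, GLR1.3, GLR2.5 and GLR2.8 have both red symbols above both grey ones by at least 2.2-fold in the mean, while the symbols of GLR1.1 and GLR2.7 mix.

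In clade 1, GLR1.2 (AT5G48400) and GLR1.3 (AT5G48410) were the genes that rose. GLR1.2 stood at 6.34 and 5.12 RPKM in the control libraries and at 24.1 and 24.2 RPKM in the glutamate libraries. The glutamate values were nearly equal and lay far above both controls. The log2 change was 1.91 ± 0.14 (SE), with an adjusted p in limma of 0.00046, and 4.79% of the genes tested rose more. GLR1.3 was at 4.81 and 4.25 RPKM in the controls and at 10.3 and 9.61 RPKM after glutamate. Here too the groups did not overlap, but the rise was smaller, at 0.99 ± 0.13 on the log2 scale (limma, adjusted p = 0.0038). The levels of GLR1.2 rest on 482.6 and 340.3 reads in the controls and 1258 and 1465 after glutamate, and those of GLR1.3 on 384.4 and 296.7 reads in the controls and 566.3 and 612.1 after glutamate; recovered reads need not be whole where the shared-read fraction is above 0. Their shared-read fractions, deposited for each gene and read here as the share of reads that also match elsewhere, were 0.0096 and 0.0092.

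GLR1.1 (AT3G04110) had the highest control level of the 10 genes. It was at 31.4 and 24.2 RPKM in the controls and at 26.9 and 24.1 RPKM after glutamate. The groups overlapped, and the difference of -0.11 on the log2 scale had a 95% interval from -0.53 to 0.30 (limma, adjusted p = 0.66). GLR1.4 (AT3G07520) was at 2.51 and 2.93 RPKM in the controls and at 2.04 and 2.13 RPKM after glutamate. Both glutamate values lay below both controls, but the log2 difference of -0.27 did not pass (95% interval -0.63 to 0.10; limma, adjusted p = 0.23).

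In clade 2, GLR2.5 (AT5G11210; chr5:3571020-3574817, minus strand, in RefSeq TAIR10.1) showed the largest log2 change of the 10 genes. It was at 2.64 and 3.15 RPKM in the controls and at 14.5 and 19.8 RPKM after glutamate. The glutamate libraries lay well apart from each other, and both were far above the controls. The log2 change was 2.21 ± 0.19 (limma, adjusted p = 0.0007), and 3.73% of the genes tested rose more. Its reads numbered 189 and 197 in the controls and 712 and 1130 after glutamate, with a shared-read fraction of 0.0291, the highest of the 10. In the RefSeq annotation, GLR2.5 overlaps the helicase gene UAP56b on the other strand by 20 bases, and also a long non-coding RNA gene, AT5G01865, on its own strand. Reads from the shared part of AT5G01865 cannot be told from those of GLR2.5 by strand, and AT5G01865 was not analysed here. UAP56b stood at 57.0 RPKM in the controls and 51.3 RPKM after glutamate (limma, adjusted p = 0.45), and whether the counting used strand is not given in the sources used here.

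GLR2.8 (AT2G29110) was the lowest of the 10 genes at 0 h. Its values were 0.946 and 0.845 RPKM in the controls and 4.44 and 4.62 RPKM after glutamate. The libraries of each group lay close together, and the groups were far apart. The log2 change was 1.55 ± 0.14 (limma, adjusted p = 0.00091), from 77 and 60 reads in the controls to 249 and 301 reads after glutamate. Its control mean is below 1 RPKM, so it reached the test through the glutamate libraries. In the fit without the filter, which covers all 33602 genes and called 6.77% of them higher, GLR2.8 was called higher as well (limma, adjusted p = 0.020). That share counts genes at the lowest level, 10360 to 10694 per library, and was 16.3% with the filter.

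The neighbours of GLR2.8 in the same array did not pass. GLR2.7 (AT2G29120) was at 16.6 and 10.6 RPKM in the controls and at 14.7 and 9.88 RPKM after glutamate. In both groups library 1 was well above library 2, and the groups overlapped. The log2 difference was -0.13, with a 95% interval from -0.80 to 0.55 (limma, adjusted p = 0.76). Falls and rises within that interval remain possible. GLR2.9 (AT2G29100) was at 1.74 and 1.06 RPKM in the controls and at 2.3 and 1.82 RPKM after glutamate. Both glutamate values were above both controls, though the nearest pair lay closer than the control libraries did to each other, and the log2 difference of 0.36 did not pass (95% interval -0.14 to 0.86; limma, adjusted p = 0.24).

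GLR2.1 (AT5G27100), known from pollen tubes, overlaps the protein-coding gene AT5G27093 on the other strand by 330 bases in the RefSeq annotation, so that its level is uncertain if strand was not used. It was at 1.65 and 1.57 RPKM in the controls and at 1.21 and 1.36 RPKM after glutamate. Both glutamate values were lower, and the log2 difference of -0.19 did not pass (95% interval -0.56 to 0.18; limma, adjusted p = 0.39). GLR2.3 (AT2G24710), whose mean over all libraries was 0.685 RPKM, was at 0.743 and 1.26 RPKM in the controls and at 0.386 and 0.349 RPKM after glutamate. These values are 57 and 85 reads against 20 and 21 reads, and the mean ratio was 0.366. Without the filter GLR2.3 did not pass in limma (log2 difference -0.54, unadjusted p = 0.031, adjusted p = 0.15). With voom weights on the recovered reads of the 21553 genes with at least 10 reads, a setting chosen after seeing the data, GLR2.3 was called lower (log2 change -1.39, adjusted p = 0.047). That setting called 14.3% of all its genes higher, 12.6% lower and 26.9% in either direction. Of the 9 members tested, 0 were called lower in limma, and 0 were lower at an unadjusted p under 0.05. With voom, 4 members were higher and 1, GLR2.3, was lower.

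**Figure D2:**
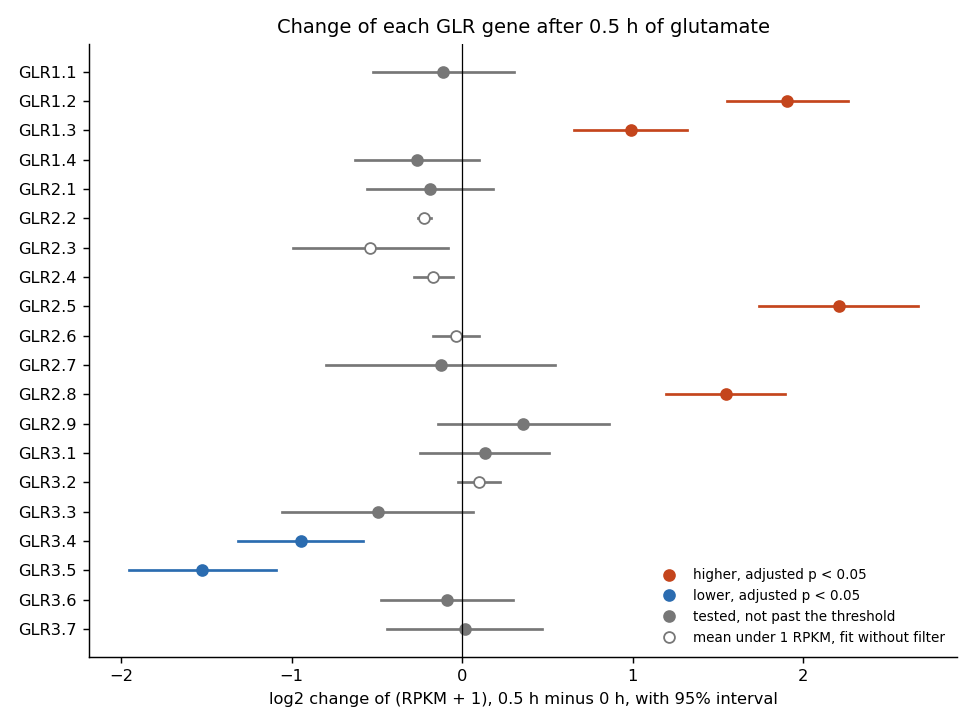
Log2 change of RPKM + 1 (0.5 h minus 0 h) with its 95% interval for the 20 GLR genes, from limma. Filled points were tested with the filter and open points come from the fit without it. Red points, called higher, are GLR1.2, GLR1.3, GLR2.5 and GLR2.8, from 0.99 to 2.21, and blue points, called lower, are GLR3.4 and GLR3.5.

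Of the 9 members tested, 7 had glutamate libraries that lay entirely above (5) or below (2) the controls. Over all genes tested, 29.1% lay entirely above, 37.1% entirely below and 66.2% in either position, so this count by itself says little about the members. In bulk RNA of seedlings a change in the RNA per cell and a change in the number of cells that hold it cannot be told apart.

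The order of levels changed with the rises. At 0 h the order ran from GLR1.1 and GLR2.7, at 27.8 ± 5.12 and 13.6 ± 4.25 RPKM (SD, n = 2), through GLR1.2, GLR1.3, GLR2.5, GLR1.4, GLR2.1, GLR2.9 and GLR2.3 to GLR2.8, at 0.896 ± 0.071 RPKM. The places below GLR1.3 are uncertain: the ranges over libraries of GLR2.5 and GLR1.4 overlapped, and so did those of each next pair from GLR2.1 to GLR2.8. After glutamate GLR1.1 was followed by GLR1.2 at 24.1 ± 0.063 RPKM, and their ranges overlapped. GLR2.5 came next at 17.1 ± 3.76 RPKM, then GLR2.7 at 12.3 ± 3.41 RPKM and GLR1.3 at 9.97 ± 0.50 RPKM. The range of GLR2.7 overlapped those of GLR2.5 and GLR1.3, while GLR1.3 lay clear of GLR2.8. GLR2.8 moved from place 10 to place 6, at 4.53 ± 0.13 RPKM.

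The summed level of the 10 genes was 69.4 and 54.9 RPKM in the control libraries and 101 and 97.8 RPKM after glutamate. The glutamate sums lay above both control sums, a ratio of 1.60, with an exact two-sided permutation p of 0.33, the smallest that 2 against 2 libraries allow. GLR1.1 and GLR2.7 together made up 69.2% and 63.3% of the summed level in the controls and 41.3% and 34.7% after glutamate. GLR1.2 alone went from 9.14% and 9.32% to 23.9% and 24.7%, and GLR2.5 from 3.8% and 5.73% to 14.4% and 20.2%. The division between the clades moved less: clade 1 genes held 64.96% and 66.4% of the sum in the controls and 62.8% and 61.3% after glutamate.

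**Figure D3:**
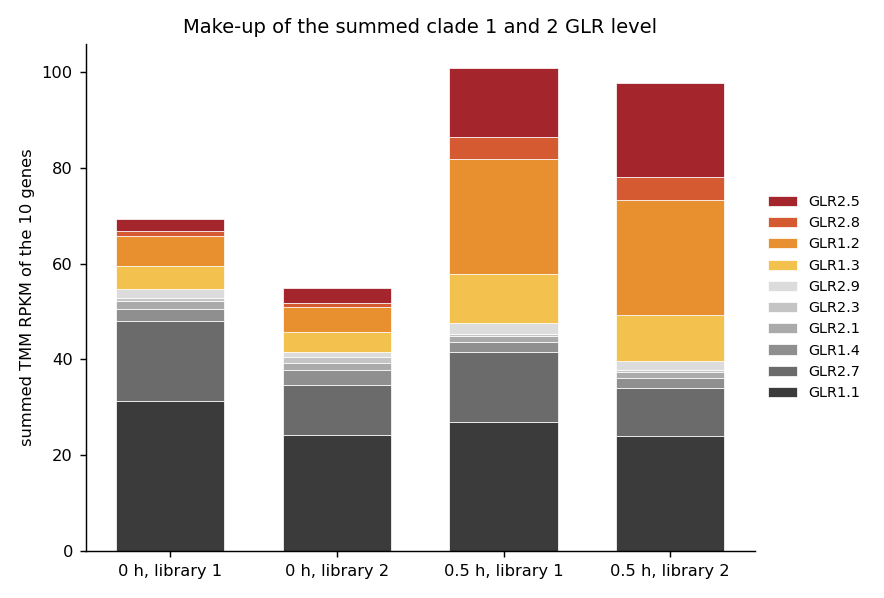
Summed RPKM of the 10 genes in each library, stacked by gene from 0, with the 4 genes called higher in colour and the other 6 in grey. The coloured part is 14.7 and 13.4 RPKM in the controls and 53.3 and 58.2 RPKM after glutamate.

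Some of these genes sit next to close copies of themselves, which allows neighbours to be compared within each library. In the RefSeq annotation of TAIR10.1, GLR1.2 (chr5:19616066-19619508) and GLR1.3 (chr5:19620267-19623425) follow each other on the plus strand with 758 bases between them. GLR2.9 (chr2:12501092-12504944), GLR2.8 (chr2:12506795-12510624) and GLR2.7 (chr2:12511246-12515947) lie in a row on the minus strand, 1850 and 621 bases apart. Over aligned bases the coding sequences were 87.1% identical between GLR1.2 and GLR1.3, 85.5% between GLR2.8 and GLR2.9 and 78.9% between GLR2.7 and GLR2.8. No other pair of the 10 passed 78.7%. Each of the 10 genes has 5 coding exons, and the shared-read fraction was at most 0.0015 in the GLR2.7 to GLR2.9 array.

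Ratios between neighbours lay apart in the control and glutamate libraries. The log2 ratio of GLR1.2 to GLR1.3, from RPKM + 1, was 0.34 and 0.22 in the controls and 1.15 and 1.25 after glutamate. GLR2.8 was below GLR2.9 in both control libraries, at -0.49 and -0.16, and above it in both glutamate libraries, at 0.72 and 1.00. The ratio of GLR2.7 to GLR2.8 was 3.18 and 2.65 in the controls and 1.53 and 0.95 after glutamate, and that of GLR2.7 to GLR2.9 was 2.68 and 2.49 against 2.25 and 1.95. None of these 4 ratios overlapped between the groups. Of single genes tested, 66.2% did not overlap either, and no such share was computed for ratios, so this count says little. The ratios within the GLR2.7 to GLR2.9 array share genes and are not separate results. The exact two-sided permutation p was 0.33 for each, also after Benjamini-Hochberg adjustment over the 4. That test cannot give less with 2 against 2 libraries, and no other test of the ratios was run.

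**Figure D4:**
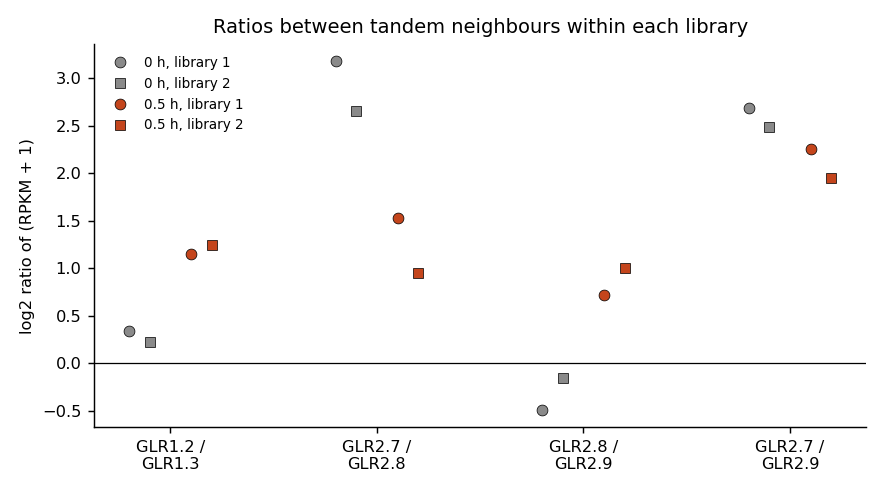
Log2 ratio of RPKM + 1 between members of the same tandem array within each library, with grey symbols for 0 h and red symbols for 0.5 h. For GLR2.8 over GLR2.9 both grey symbols lie below 0 and both red ones above it.

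To set the upstream DNA of the rising genes beside that of their neighbours, the 250 bases before the annotated start were read from the RefSeq TAIR10.1 genome, for GLR1.2 (chr5:19615816-19616065, plus strand), GLR1.3 (chr5:19620017-19620266, plus), GLR2.5 (chr5:3574818-3575067, minus), GLR2.7 (chr2:12515948-12516197, minus), GLR2.8 (chr2:12510625-12510874, minus) and GLR2.9 (chr2:12504945-12505194, minus). They are written 5′ to 3′ on the gene's strand, and capitals mark short motifs searched on both strands: TTGAC, the core of the W-box that WRKY factors bind, CGCG, the core bound by the calmodulin-binding CAMTA factors, and TGACG, bound by TGA factors. The G-box CACGTG and the GCC-box GCCGCC were searched too and are not in these 250-base windows.
GLR1.2: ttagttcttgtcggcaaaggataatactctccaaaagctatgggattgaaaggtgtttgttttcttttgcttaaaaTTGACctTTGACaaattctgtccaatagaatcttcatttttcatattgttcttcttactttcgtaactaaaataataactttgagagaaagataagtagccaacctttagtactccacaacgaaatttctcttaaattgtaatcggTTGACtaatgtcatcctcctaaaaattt
GLR1.3: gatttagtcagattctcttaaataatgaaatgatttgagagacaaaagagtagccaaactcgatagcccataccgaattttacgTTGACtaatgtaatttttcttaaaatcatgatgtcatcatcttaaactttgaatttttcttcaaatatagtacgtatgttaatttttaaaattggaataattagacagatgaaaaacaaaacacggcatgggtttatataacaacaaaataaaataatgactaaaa
GLR2.5: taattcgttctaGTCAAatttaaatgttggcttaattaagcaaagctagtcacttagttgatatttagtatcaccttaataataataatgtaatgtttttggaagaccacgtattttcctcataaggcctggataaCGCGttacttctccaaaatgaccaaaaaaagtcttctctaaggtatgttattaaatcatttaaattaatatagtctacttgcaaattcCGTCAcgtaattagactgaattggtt
GLR2.7: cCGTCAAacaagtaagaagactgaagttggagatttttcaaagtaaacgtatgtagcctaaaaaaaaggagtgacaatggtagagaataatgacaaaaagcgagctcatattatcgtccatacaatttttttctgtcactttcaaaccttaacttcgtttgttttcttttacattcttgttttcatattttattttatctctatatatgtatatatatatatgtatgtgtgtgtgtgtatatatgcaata
GLR2.8: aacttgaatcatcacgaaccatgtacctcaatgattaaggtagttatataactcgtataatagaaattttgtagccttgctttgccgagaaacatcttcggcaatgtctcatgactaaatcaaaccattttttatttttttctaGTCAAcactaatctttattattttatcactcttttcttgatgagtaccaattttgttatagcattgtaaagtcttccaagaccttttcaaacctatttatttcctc
GLR2.9: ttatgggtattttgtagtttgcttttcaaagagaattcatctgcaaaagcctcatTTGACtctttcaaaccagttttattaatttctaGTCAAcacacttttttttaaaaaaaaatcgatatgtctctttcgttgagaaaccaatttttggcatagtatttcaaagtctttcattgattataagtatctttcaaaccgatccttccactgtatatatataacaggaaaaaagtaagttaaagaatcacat

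A TTGAC core was in the window of all 10 genes, called or not, and in 44.9% of the 27444 upstream windows of the same length of protein-coding genes. GLR1.2 held 3 copies, 174, 167 and 28 bases before the start, and GLR1.3 held 1, 166 bases before it. The longest run that these windows have in common is gTTGACtaatgt, which takes in the core at 28 bases in GLR1.2 and that at 166 bases in GLR1.3. GLR2.8 held 1 copy, GLR2.9 held 2, and the longest run common to their windows, tttctaGTCAAcac, includes a copy as well. The longest runs that GLR2.7 shares with GLR2.8 (atttttttct, 10 bases) and with GLR2.9 (tgtatatatata, 12 bases) hold no TTGAC core. How long such runs are between unrelated windows was not tested. A CGCG core was in 3 windows of 10, those of GLR1.1, GLR2.3 and GLR2.5, against 10.14% of all windows. TGACG was in 2, those of GLR2.5 and GLR2.7, against 18.6%, and in GLR2.7 it overlaps the TTGAC core. The motifs were chosen after the expression values were seen, and a match is a run of letters, not a shown binding site. The start used is the outer end of the RefSeq gene record. That record holds 2 transcripts for GLR1.2, 4 for GLR1.3 and 11 for GLR2.5, and which start was in use was not tested.

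**Figure D5:**
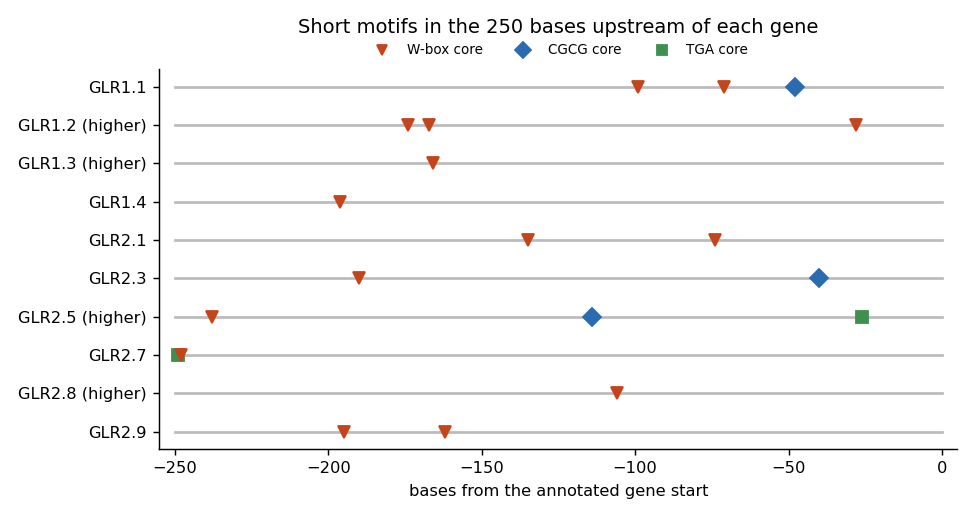
Positions of the TTGAC core (red), the CGCG core (blue) and TGACG (green) in the 250 bases before the annotated start of each of the 10 genes, in bases from the start. Every line carries at least 1 red mark, GLR1.2 carries 3, and the 4 genes called higher are named as such.

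The other GLR genes did not show such rises. Of 10 genes, 6 were tested, and limma called 0 higher and 2 lower. At an unadjusted p under 0.05 in limma or with voom, 0 were higher. Over all genes tested 16.3% were called higher and 14.6% lower, and 6 genes are too few to set apart from that background. Both lower genes are of clade 3: GLR3.5, at 7.28 and 6.09 RPKM in the controls and 1.95 and 1.4 RPKM after glutamate, and GLR3.4, at 13.2 and 15.8 against 7.42 and 6.62 RPKM. Their log2 changes were -1.52 and -0.95 (limma, adjusted p = 0.0020 and 0.0062), and the median over the 6 genes tested was -0.29. The clade 3 sum was 38.2 and 36.4 RPKM in the controls and 23.7 and 18.8 RPKM after glutamate. That is the opposite order to the sum of the clade 1 and 2 members, again with an exact two-sided permutation p of 0.33. Clade 3 did not fall as a whole. GLR3.3 was also lower in both glutamate libraries but did not pass (limma, adjusted p = 0.16). GLR3.1 and GLR3.2 lay above both controls without passing or being tested, and GLR3.6 and GLR3.7 overlapped them. The remaining clade 2 genes, GLR2.2, GLR2.4 and GLR2.6, lay under 0.3 RPKM in every library and were not tested. GLR2.2, next to GLR2.3 on chromosome 2, had 23 and 20 reads in the controls and 6 in each glutamate library. It was called lower without the filter (limma, adjusted p = 0.0096, with 3.97% of genes called lower), but did not pass with voom (adjusted p = 0.057). The share of 3.97% counts genes at the lowest level.

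Cornichon proteins are cargo receptors that help GLR channels out of the endoplasmic reticulum. Of the 5 genes that RefSeq names as cornichon family, 4 were tested and 0 passed in limma, with 1 lower at an unadjusted p under 0.05 and 0 with voom. That gene, AT1G62880, was at 8.38 and 8.92 RPKM in the controls and at 6.43 and 6.42 RPKM after glutamate (log2 difference -0.38; limma, adjusted p = 0.072). The other 3 tested genes had log2 differences from -0.26 to 0.09. Limma called 30.8% of all genes tested in either direction, and 4 genes are too few to set apart from that background. AT1G12340 was at or near 0 reads.

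Few genes beside the members had levels that could be tested. The next protein-coding gene on each side of every member or array gave 14 genes, of which 13 were in the table and 4 were tested. None of these was higher in limma, at an unadjusted p under 0.05 or with voom, and 1 was lower. With 16.3% of all genes called higher and 14.6% lower, 4 genes are too few to set apart from that background. The gene that fell was CYP707A2 (AT2G29090), which encodes an enzyme of abscisic acid breakdown and lies 1368 bases from GLR2.9. Its mean was 18.7 RPKM in the controls and 3.45 RPKM after glutamate (log2 change -2.15; limma, adjusted p = 0.00036). The nearest genes to GLR1.2 and GLR1.3, AtSPO22 and AT5G48420, were both under 0.1 RPKM in the mean of either group.

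Among 17741 other tested genes, the 3 whose log2 values over the 4 libraries, centred on their own mean, came nearest to GLR2.5 were AT2G25690, AT1G51620 and SR1 (AT5G01820), also named CIPK14, a kinase that binds calcineurin B-like calcium sensors. Their Euclidean distances were 0.052, 0.055 and 0.055 on the log2 scale. All 3 were, like GLR2.5, higher in glutamate library 2 than in library 1, which follows from choosing them by these same values. With 4 libraries this likeness is a description only.

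The libraries held 21776595 to 27674435 reads, as recovered from the deposited values, and 3 reads in a gene of 1 kb were worth 0.104 to 0.152 RPKM. Such floors cover counting error only. The scaling between libraries affects the share of rises: 52.8% of all calls were higher as deposited and 36.0% with library totals, where the median of all genes moved to -0.23. The 4 members kept their call there, with log2 changes of 2.04 for GLR2.5, 1.73 for GLR1.2, 1.41 for GLR2.8 and 0.82 for GLR1.3. Of 9 control genes 0 were called in limma, with 2 lower at an unadjusted p under 0.05 (UBQ10 and ACT2) and 0 with voom. The libraries held markers of shoot and root. The 5 shoot markers (RBCS1A, LHCB3, RCA, LHCA1 and PRK) summed to 12624 and 11617 RPKM in the controls and 9701 and 8312 RPKM after glutamate, with 3 lower in limma (LHCB3, RCA and PRK). The 5 root markers (CASP1, COBL9, EXPA7, PHO1 and SKOR) summed to 33.4 and 22.5 RPKM and to 17.5 and 14.3 RPKM, with 1 lower (PHO1), 3 not tested and no library at 0 reads for any. Their part in the results on these genes was not tested.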

How the data were processed

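RNA-seq libraries of seedlings at 0 h and after 0.5 h of glutamate, 2 per group, were compared. The authors deposited 1 table of RPKM values per gene and library, TMM-normalized per the file name. The genome build TAIR10 and the tool SAMtools are named per the submitters' processing notes. For the aligner, the counting tool, strand use and versions, the sources used here give nothing. The value times the gene length rises in steps, so that the deposited RPKM equals reads plus 0.5, per kilobase and per unit of an effective library size. Among the 24675 genes whose shared-read fraction is 0, at least 99.9% had whole recovered reads (tolerance 0.01). The deposited fraction (maxMultiRatio) is not defined in the file header, and its reading as shared reads is an inference from those genes.

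Values were tested as log2(RPKM + 1) in limma 3.58.1 (R 4.3.3) with a variance trend, two-sided, with Benjamini-Hochberg adjustment, over genes averaging 1 RPKM or more. The prior was worth 3.49 degrees of freedom beside 2 residual ones. The steps were tested on simulated data. Replicates differed beyond counting noise (chi-square per degree of freedom 31.7 and 27.1), which does not show that they came from separate cultures. Positions and sequences came from RefSeq TAIR10.1, since the table has no coordinates. Table lengths equal a RefSeq transcript for 5 of the 10 genes. Alternatives were pseudocount, filter, scaling, voom weights, the variance trend, the replicate number and each library left out. Named genes were all members, the other GLR and cornichon genes, called flanking genes and the 3 nearest patterns. The members and lists were chosen with earlier results of these data known.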

Additional observations from a re-analysis of the deposited data

How the results depend on the processing

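GLR1.2, GLR1.3, GLR2.5 and GLR2.8 kept their direction and their call under all 16 alternatives, with log2 changes of 1.73 to 2.08, 0.82 to 1.14, 2.00 to 2.56 and 1.41 to 2.34. GLR1.1, GLR1.4, GLR2.1, GLR2.7 and GLR2.9 passed under none that tested them. With single libraries left out, the difference of GLR1.1 lay between -0.29 and 0.071 and that of GLR2.7 between -0.43 and 0.17, so the sign of either depends on the libraries kept. In those fits the lone library of a group is assumed to vary like the others. Without control library 1 the values were 0.071 and 0.17, and without glutamate library 2 that of GLR2.7 was 0.14. For both genes library 1 was the higher library in each group. Between libraries of the same number both genes were lower after glutamate, though the labels do not tie such libraries together. GLR2.3 was the 1 member called lower, with voom weights on genes with at least 10 reads, an alternative chosen after seeing the data (log2 change -1.39). A mean of at least 2 RPKM left GLR2.1 and GLR2.9 untested.

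Over all genes, 5473 were called, 2888 higher and 2585 lower. Without the filter 3610 were called and 1335 were lower, and with library totals 4359 were lower. Adding the replicate number as a replicate block raised the calls to 9725 (4445 higher, 5280 lower). The labels do not tie libraries with the same number together, although they deviated together (r = 0.60 across genes). Under the block the same 4 members were called and no other. The block also called GLR3.3 lower (-0.50), so that 3 other GLR genes were called instead of 2, and 3 of the 9 control genes, UBQ10 (-0.49) and ACT2 (-0.33) lower and EIF4A1 (0.27) higher. Without glutamate library 1, 3 other GLR genes were called as well. Cornichon calls went from 0 to 2 with library totals and to 2 with the block (AT1G62880 and AT1G12390, the latter with a shared-read fraction of 0.463). The cause was not tested. GLR2.3, GLR2.2, GLR2.4 and GLR2.6 rest on 85 reads or fewer per library, which limits what can be said of them.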
